A study of Mus musculus with 16 samples.

Results

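Tumour necrosis factor (TNF), interleukin-6 (IL-6), interleukin-17A (IL-17A) and 7 related cytokines were followed in the footpads of AIRmax and AIRmin mice with and without pristane, an oil used to induce arthritis (pristane-induced arthritis, PIA). The 10 genes were listed by symbol (Tnf, Il6, Il17a, Il23a, Il12b, Osm, Lif, Il11, Csf2 and Csf3), and each is represented by a single probe set among the 19938 genes measured. AIRmax and AIRmin mice are outbred lines selected in opposite directions, for high and low acute inflammation, from a founder population made by intercrossing inbred strains. RNA of whole footpads was hybridized to 16 Affymetrix Mouse Gene 1.0 ST arrays. Each of the 4 groups has 4 arrays, from 2 males and 2 females. The groups were AIRmax pristane (arrays 109 to 112), AIRmax control (105 to 108), AIRmin pristane (117 to 120) and AIRmin control (113 to 116).

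AIRmax mice are known to be susceptible to PIA and AIRmin mice to resist it, so AIRmin pristane is a treated group and not an arthritic one by its labels. Pristane was given intraperitoneally in 2 doses of 0.5 ml with 60 days between them, and pristane footpads were taken at day 160, against day 0 for control footpads. The labels give an age of 2 to 4 months for every mouse, at day 0 and day 160 alike, and treatment and time cannot be told apart. It is not given in the sources used here whether control mice had received any pristane. All values are log2 signals as the authors normalized them. Values of a group are given in the order of its array numbers, males first, and a difference is the fitted difference between group means on the log2 scale. A gene passed when its adjusted p from limma, with Benjamini-Hochberg adjustment over all 19938 genes, was under 0.05. The RNA comes from whole footpads, in which fewer cells of a type and less RNA per cell cannot be told apart. The labelled sex was borne out on all 16 arrays, with Xist between 9.07 and 10.09 in females and between 3.45 and 4.32 in males. All measured marker genes of keratinocytes (6), skeletal muscle (10), adipocytes (6) and synovial or other fibroblasts (8) exceeded the background level given below. This held for their mean in some or all of the groups.

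TNF is released mainly by activated macrophages and acts through its receptors on NF-kappaB, and it is a drug target in rheumatoid arthritis. IL-23 and IL-12 are made by myeloid cells from a private subunit and the shared subunit encoded by Il12b. IL-23 maintains the T cells that make IL-17A, which in turn makes fibroblasts and epithelial cells release chemokines that draw neutrophils. IL-6, oncostatin M (Osm), leukaemia inhibitory factor (Lif) and interleukin-11 (Il11) form a family whose receptors share the gp130 chain, encoded by Il6st, and signal through STAT3, which induces its own inhibitor Socs3. Csf2 and Csf3 encode the growth factors of granulocytes and macrophages (GM-CSF) and of granulocytes (G-CSF).

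Promoters were available for 7 of the 10 genes (RefSeq, GRCm38.p6), each a window of 300 bases from 250 before to 50 after the start site. Those of Tnf, Il6 and Il17a are shown because these 3 genes had a group that lay clear of another in the comparisons described below. Il23a, Osm and Csf3 are named only. Capitals mark matches, on either strand, to AP-1 (TGANTCA), kappaB (GGGNNTTTC), CRE (GACGTCA), C/EBP (TTNNGNAA), STAT (TTCNNNGAA) or the TATA box (TATAAA), motifs chosen with these sequences in view.
Tnf, chr17:35201958-35202257, minus strand: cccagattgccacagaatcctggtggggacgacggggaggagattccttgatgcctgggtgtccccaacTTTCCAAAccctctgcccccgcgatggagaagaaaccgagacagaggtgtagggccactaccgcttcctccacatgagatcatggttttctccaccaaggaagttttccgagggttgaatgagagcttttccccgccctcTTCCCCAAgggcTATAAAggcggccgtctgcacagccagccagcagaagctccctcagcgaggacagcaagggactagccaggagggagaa
Il6, chr5:30012864-30013163, plus strand: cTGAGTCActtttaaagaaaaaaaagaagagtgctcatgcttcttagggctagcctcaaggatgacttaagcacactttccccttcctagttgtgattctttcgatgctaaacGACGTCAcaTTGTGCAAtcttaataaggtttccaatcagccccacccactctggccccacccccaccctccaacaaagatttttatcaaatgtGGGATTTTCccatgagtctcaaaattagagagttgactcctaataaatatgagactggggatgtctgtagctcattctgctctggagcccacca
Il17a, chr1:20730655-20730954, plus strand: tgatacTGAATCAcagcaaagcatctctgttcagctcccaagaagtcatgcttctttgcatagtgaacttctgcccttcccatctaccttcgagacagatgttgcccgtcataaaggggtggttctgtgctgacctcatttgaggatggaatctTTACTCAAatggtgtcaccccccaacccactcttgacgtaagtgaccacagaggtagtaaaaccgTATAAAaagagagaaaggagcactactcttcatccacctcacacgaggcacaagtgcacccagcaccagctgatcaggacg
The Il6 window held 4 matches, an AP-1 match at its far end, a CRE match closely followed by a C/EBP match, and a kappaB match nearest the start site. The Tnf window held 2 C/EBP matches and a TATA box, and the Il17a window an AP-1 match, a C/EBP match and a TATA box. No STAT match lay in any window of the 7 genes, and AP-1 matches were also found for Lif and for 1 of the 2 Il11 start sites, a C/EBP match for Csf2, and none of the 6 motifs for Il12b. Among 32851 promoters of the same length, AP-1 was present in 7.81%, kappaB in 4.36%, CRE in 3.21%, C/EBP in 40.7%, STAT in 8.3% and the TATA box in 13.6%. A match is a description of these letters and not a binding site.

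Several of the cytokine genes gave a signal close to that of genes not expected in a footpad. The background level was set at 4.45, the 95th percentile of the mean signal of 1027 olfactory receptor genes, whose median was 2.76. Il6 and Csf2 were at or under it in all 4 groups. Il23a exceeded it in AIRmin pristane footpads alone (4.56) and Il12b in AIRmax pristane footpads alone (4.5). Tnf, Il17a, Osm, Lif, Il11 and Csf3 were above it in all 4 groups, with the AIRmin pristane mean of Osm just above the limit at 4.45. Taking the 99th percentile instead (5.16), 7 genes were near background in every group, and Tnf was the single gene above it in all 4. Probe sets differ in how brightly they read a given amount of RNA, so this level is a guide and ranks no gene against another.

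**Figure D1:**
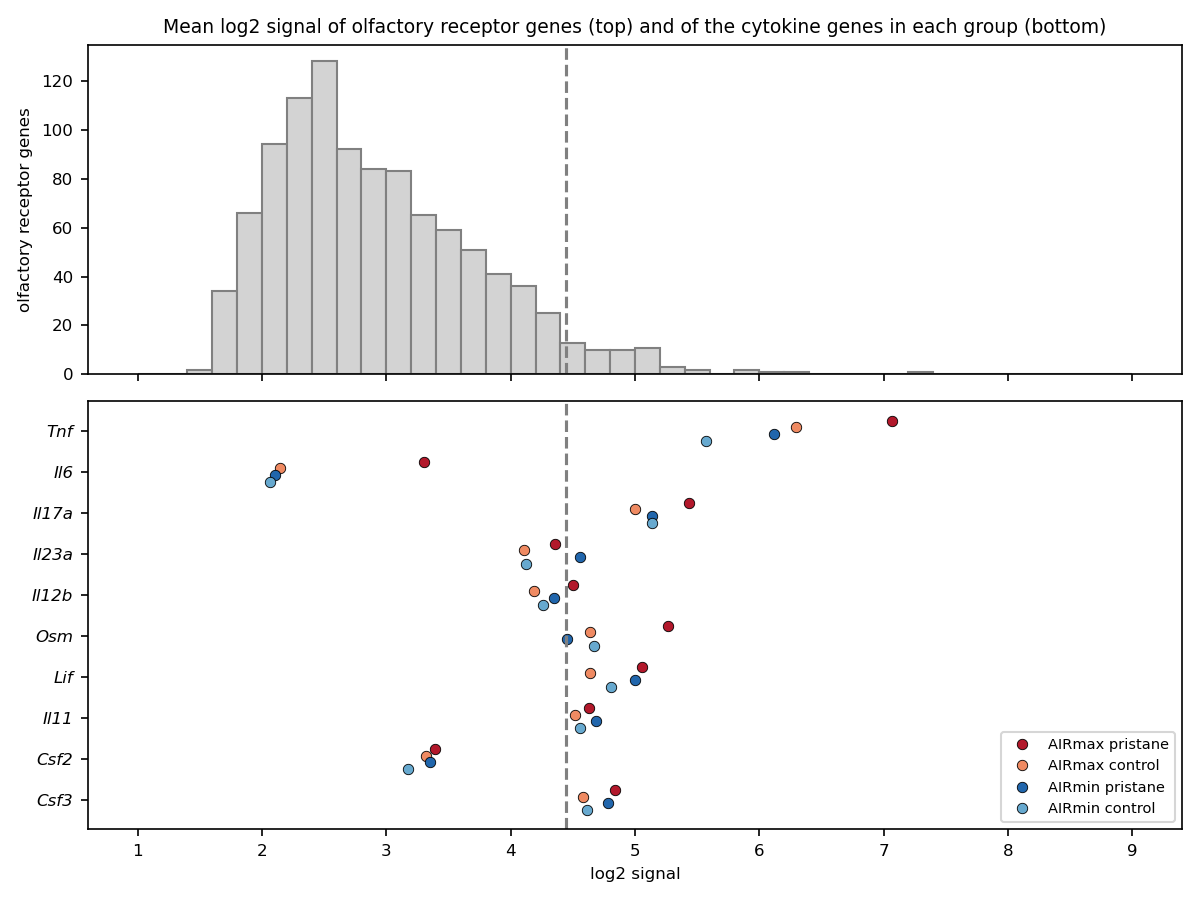
Upper panel, number of olfactory receptor genes by mean log2 signal over 16 arrays. Lower panel, mean log2 signal of each cytokine gene in the 4 groups (n = 4 arrays each). The dashed line is the background level of 4.45, with all 4 points of Il6 and of Csf2 to its left and all 4 points of Tnf far to its right.

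None of the 10 cytokine genes passed in any comparison, and the differences below are therefore given as values. In AIRmax mice, pristane minus control, all 10 differences were positive, with a median of 0.36 against 0.03 over all genes tested. By limma 0 of 10 passed, against 0.281% of all genes (0.14% higher and 0.14% lower). At an unadjusted p under 0.05 there were 5 (Tnf, Il6, Il17a, Lif and Csf3), against 14.4% of all genes in either direction. Il17a alone had pristane arrays all above the control arrays, which held for 5.09% of all genes, and Il17a was also the single cytokine gene called by the SAM procedure, which called 3.62% of genes. The olfactory receptor genes themselves shifted in this comparison, by a median of 0.10 (5th to 95th percentile, -0.12 to 0.32). Their median on each array was 2.77 to 2.87 in AIRmax pristane and 2.67 to 2.75 in AIRmax control footpads, with no overlap, so this shift and pristane cannot be told apart in AIRmax.

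In AIRmin mice the median difference was 0.15, against 0.02 over all genes, and 9 of 10 were positive. Limma passed 0 of 10, as it did 0% of all genes. An unadjusted p under 0.05 was found for 2 (Tnf and Il23a), against 12.4% of all genes. Tnf was the single cytokine gene whose pristane arrays all lay above the controls, against 3.19% of genes. SAM called 0 of 10, against 2.01% of genes. The olfactory receptor genes shifted in AIRmin by a median of 0.06 (5th to 95th percentile, -0.15 to 0.27). Their median on each array was 2.77 to 2.87 in AIRmin pristane and 2.70 to 2.78 in AIRmin control footpads, with overlap. Setting the AIRmax response against the AIRmin response passed 0 of 10 genes, against 0.171% of all genes, and 3 (Il6, Il17a and Osm) had an unadjusted p under 0.05, against 8.21%.

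Between the lines, AIRmax minus AIRmin, pristane footpads gave a median difference of 0.10 over the 10 genes, against -0.01 over all genes. Limma passed 0 of 10, against 1.36% of all genes (0.853% higher and 0.507% lower in AIRmax). An unadjusted p under 0.05 was found for 4 (Tnf, Il6, Il17a and Osm), all higher in AIRmax, against 18.8% of genes. AIRmax arrays all lay above AIRmin arrays for Tnf, Il6 and Osm, 3 of 10 against 5.04% of genes, and SAM called Osm, 1 of 10 against 5.02%. In control footpads the median was -0.03, as it was over all genes. Limma passed 0 of 10 there, against 0.0802% of genes, Tnf alone had an unadjusted p under 0.05 (16.8% of genes), no gene had AIRmax arrays all above AIRmin arrays (5.39% of genes), and SAM called 0 of 10 (1.23% of genes). Males minus females within groups passed for 0 of 10 genes by limma, against 0.105% of genes, and none had an unadjusted p under 0.05, against 4.98%; the differences ran from -0.27 for Tnf to 0.02 for Lif.

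**Figure D2:**
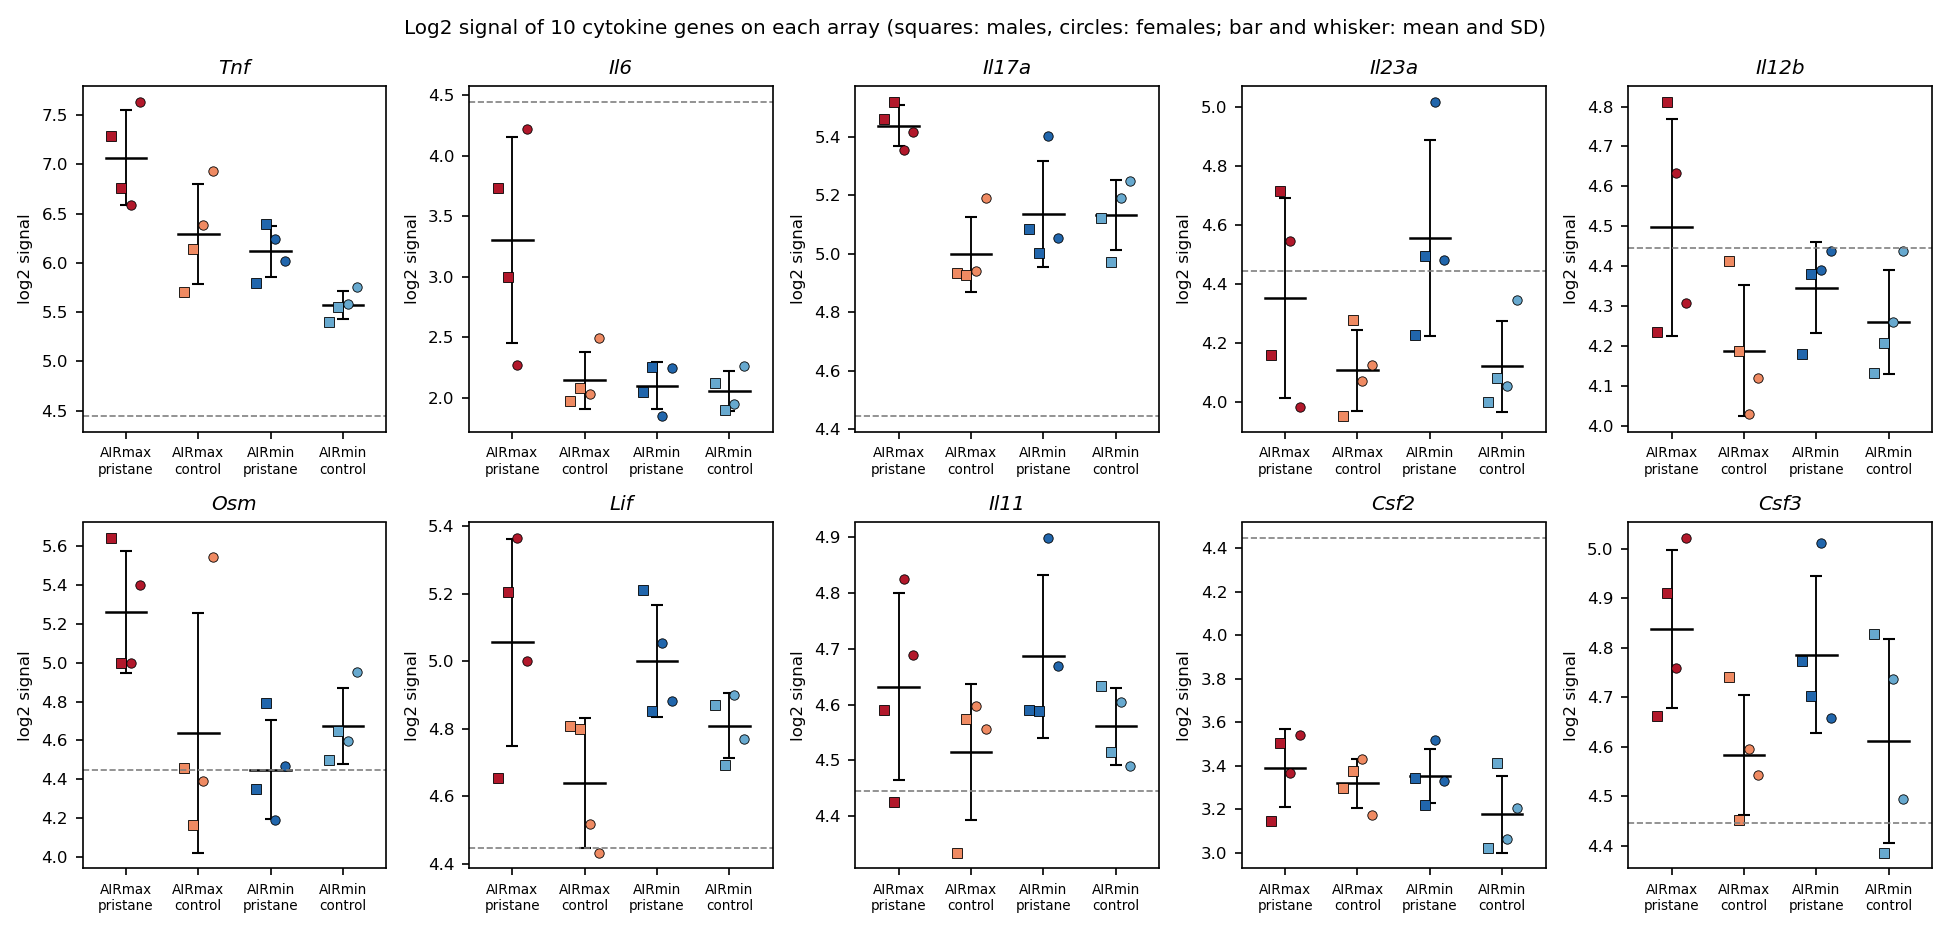
Log2 signal of each cytokine gene (y axis) on the 16 arrays by group (x axis). Points are arrays (squares, males; circles, females), bars and whiskers are the group mean and SD (n = 4), and the dashed line is the background level of 4.45. Tnf in AIRmax pristane footpads lies between 6.59 and 7.64, above every AIRmin array, and Il6 lies between 2.27 and 4.22 there, against at most 2.49 in the other groups.

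Tnf showed the same order in both lines, with pristane above control and AIRmax above AIRmin. It read 7.29, 6.76, 6.59 and 7.64 in AIRmax pristane footpads, against 5.71, 6.14, 6.39 and 6.93 in AIRmax control footpads. In AIRmin mice it read 5.80, 6.39, 6.25 and 6.02 in pristane footpads, against 5.40, 5.55, 5.59 and 5.75 in control footpads. The pristane arrays lay clear of the controls in AIRmin, while in AIRmax the highest control (array 108) exceeded the lower pair of pristane arrays. The fitted difference was 0.77 in AIRmax (standard error 0.30, 95% interval 0.10 to 1.44, adjusted p = 0.288 from limma) and 0.54 in AIRmin (standard error 0.14, 0.24 to 0.85, adjusted p = 0.144). The responses differed by 0.23 (-0.51 to 0.97, adjusted p = 0.934), an interval that takes in a larger response in either line. All 4 AIRmax pristane arrays were above all 4 AIRmin pristane arrays, by 0.95 on average (0.42 to 1.48, adjusted p = 0.0816 from limma). In control footpads AIRmax exceeded AIRmin by 0.72 (0.22 to 1.22, adjusted p = 0.212), with 1 AIRmax array (105) inside the AIRmin range. In the order of group means, AIRmax control and AIRmin pristane are neighbours (6.29 ± 0.51 and 6.12 ± 0.26, SD, n = 4), and their ranges overlap.

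Tnf varied from array to array together with marker genes of other cells. A score of 6 granulocyte precursor genes, averaged after each gene was centred over the 16 arrays, ranged from -0.63 to 2.29 in AIRmax pristane, 0.01 to 2.30 in AIRmax control, -1.97 to 1.58 in AIRmin pristane and -2.52 to -0.11 in AIRmin control footpads. None of its 6 genes (among them Prtn3 and Ms4a3) passed in any comparison. In control footpads, though, all 6 were higher in AIRmax at an unadjusted p under 0.05 from limma, against 16.8% of all genes. Their median difference there was 2.08, and 5 of the 6 did not overlap, against 5.39% of all genes. Within groups Tnf followed this score with r = 0.70, and it ran against the score of 6 keratinocyte genes with r = -0.84, over 16 arrays that share their groups. Scores of macrophage, T cell and mast cell markers, built alike, gave r = 0.50, 0.59 and 0.62 within groups. Without regard to group these were 0.67, 0.13 and -0.33. Those of adipocyte, muscle, fibroblast, and Th17 and gamma delta T cell genes gave 0.40, -0.20, -0.22 and -0.31 within groups. The keratinocyte score ranged from -1.57 to 0.24 in AIRmax pristane, against -0.60 to 0.21 in AIRmax control footpads, and 0 of its 6 genes passed. With the granulocyte score as a covariate the AIRmax difference of Tnf was 0.72 (adjusted p = 0.049), past the threshold, in a fit that called 2.37% of all genes. With the same covariate the difference between lines in control footpads was 0.24 (adjusted p = 0.964), against 0.72 without it. The score did not overlap between the control groups, so line and score cannot be told apart in that fit. The highest granulocyte score among AIRmax controls belonged to array 108, which also had the highest Tnf, Il6, Il17a and Osm of that group, and without it the Tnf difference was 0.99 (adjusted p = 0.152).

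Il17a, the product of Th17 and gamma delta T cells, read 5.46, 5.52, 5.35 and 5.42 in AIRmax pristane footpads, against 4.93, 4.93, 4.94 and 5.19 in AIRmax control footpads. In AIRmin it read 5.09, 5.0, 5.40 and 5.05 in pristane footpads, against 5.12, 4.97, 5.19 and 5.25 in control footpads. The AIRmax pristane arrays were all above the AIRmax controls, and the AIRmin groups overlapped. The difference was 0.44 in AIRmax (standard error 0.09, 95% interval 0.23 to 0.65, adjusted p = 0.0986 from limma), and 0.00 in AIRmin (-0.25 to 0.25, adjusted p = 0.996). The responses differed by 0.44 (0.14 to 0.74, adjusted p = 0.355), which did not pass. In pristane footpads AIRmax exceeded AIRmin by 0.30 (adjusted p = 0.191), with the AIRmin female array 119 (5.40) inside the AIRmax range.

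The Il17a difference was small, and genes read as background shifted the same way. It lay above the 95th percentile of the olfactory receptor genes (0.32). Of those genes 64, or 6.23%, also had AIRmax pristane arrays all above the controls, against 5.09% of all genes. Over 16 arrays Il17a followed the olfactory receptor median with r = 0.72 (0.53 within groups), and 1 of its 3 nearest genes was itself an olfactory receptor gene (Xylb, r = 0.88; St18, r = 0.87; Olfr149, r = 0.87). With that median as a covariate, an alternative added after the values were seen, the AIRmax difference of Il17a was 0.35 and no gene passed, in a fit where the covariate does not overlap between the groups. Of 5 measured Th17 and gamma delta T cell genes none passed in any comparison. The receptor gene Il23r was near background in all 4 groups, and the closest to passing, Ccr6 and Blk, differed by -0.36 and -0.66 in AIRmax (adjusted p = 0.125 and 0.143). The score of these 5 genes ranged from -0.28 to 0.10 in AIRmax pristane and from 0.03 to 0.17 in AIRmax control footpads.

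Il23a, the private subunit of IL-23, had its highest group mean in AIRmin pristane footpads (4.56 ± 0.33, SD, n = 4), with single AIRmax pristane arrays among its highest readings, and Il12b stayed within a narrow range. Il23a read 4.16, 4.72, 4.55 and 3.98 in AIRmax pristane, against 3.95, 4.28, 4.07 and 4.13 in AIRmax control footpads. In AIRmin mice it read 4.23, 4.5, 5.02 and 4.48 in pristane, against 4.00, 4.08, 4.05 and 4.35 in control footpads. Groups overlapped in both lines. The difference was 0.43 in AIRmin (0.07 to 0.80, adjusted p = 0.308 from limma) and 0.24 in AIRmax (-0.13 to 0.62, adjusted p = 0.527), and the responses differed by -0.19 (-0.71 to 0.33). Without array 119 the AIRmin difference of Il23a was 0.28, and without array 110 the AIRmax difference was 0.12. With the olfactory receptor median as a covariate they were 0.16 and -0.04. Il12b ranged from 4.23 to 4.81 in AIRmax pristane, against 4.03 to 4.41 in AIRmax control footpads (difference 0.31, adjusted p = 0.381). It ranged from 4.18 to 4.44 in AIRmin pristane, against 4.13 to 4.44 in AIRmin control footpads (0.09, adjusted p = 0.776). Within groups Il23a and Il12b went together with r = 0.63 over 16 arrays, both of them near the background level.

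In the IL-6 family, Il6 and Osm had their highest group means in AIRmax pristane footpads, where their arrays did not overlap with those of AIRmin, while those of Lif and Il11 overlapped. Il6 read 3.73, 3.0, 2.27 and 4.22 in AIRmax pristane footpads, against 1.97, 2.09, 2.03 and 2.49 in AIRmax control footpads. It read 2.05, 2.25, 1.85 and 2.25 in AIRmin pristane footpads, against 2.12, 1.90, 1.95 and 2.27 in AIRmin control footpads. Arrays 109, 110 and 112 stood above every array of the other groups, and array 111 lay within the AIRmax control range. The difference was 1.16 in AIRmax (standard error 0.37, 0.32 to 1.99, adjusted p = 0.215 from limma), and 0.04 in AIRmin (-0.24 to 0.32, adjusted p = 0.933). The responses differed by 1.12 (0.24 to 2.00, adjusted p = 0.464), and AIRmax exceeded AIRmin in pristane footpads by 1.2 (0.39 to 2.01, adjusted p = 0.121), without overlap, although array 111 (2.27) barely cleared the highest AIRmin arrays (2.25). These Il6 signals all lie under the background level, so the size of a change in Il6 RNA cannot be read from them. Leaving out array 111 gave 1.5 for the AIRmax difference (adjusted p = 0.115), and leaving out array 112 gave the lowest value, 0.85.

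Osm, made by neutrophils and macrophages, read 5.64, 5.0, 5.0 and 5.40 in AIRmax pristane footpads, against 4.46, 4.16, 4.39 and 5.55 in AIRmax control footpads. In AIRmin it read 4.35, 4.79, 4.19 and 4.47 in pristane footpads, against 4.5, 4.65, 4.60 and 4.95 in control footpads. A single AIRmax control, array 108, reached the pristane range, and AIRmin pristane had the lowest mean (4.45 ± 0.26, SD, n = 4). AIRmax pristane minus AIRmin pristane was 0.81 (standard error 0.18, 0.40 to 1.22, adjusted p = 0.0679 from limma), without overlap. The difference between pristane and control was 0.62 in AIRmax (-0.04 to 1.28, adjusted p = 0.371) and 0.92 without array 108 (adjusted p = 0.0757). In AIRmin it was -0.22 (-0.55 to 0.10, adjusted p = 0.586), and the responses differed by 0.85 (0.11 to 1.59, adjusted p = 0.534). Osm followed the granulocyte precursor score within groups with r = 0.81. With that score as a covariate the line difference of Osm in pristane footpads passed (adjusted p = 0.0212), where 2.98% of all genes did. The difference in response also passed for Osm (0.0241) and Il6 (0.0283), against 2.32% of all genes.

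Lif, the neighbour of Osm on chromosome 11, read 4.65, 5.21, 5.36 and 5.0 in AIRmax pristane footpads, against 4.81, 4.8, 4.52 and 4.43 in AIRmax control footpads. The difference was 0.42 in AIRmax (0.04 to 0.79, adjusted p = 0.30 from limma) and 0.19 in AIRmin (-0.04 to 0.43, adjusted p = 0.505). Within groups its array pattern ran against that of its neighbour. Lif correlated there with Osm at r = -0.70, with Tnf at -0.73, with Il6 at -0.66 and with the granulocyte precursor score at -0.80. Tnf, Il6 and Osm correlated with each other at 0.58 to 0.74 within groups. Over 16 arrays Lif correlated with Osm at -0.18, with Tnf at -0.01, with Il6 at 0.04 and with that score at -0.44. Il11 ranged from 4.43 to 4.82 in AIRmax pristane, against 4.33 to 4.60 in AIRmax control footpads, and from 4.59 to 4.90 in AIRmin pristane, against 4.49 to 4.63 in AIRmin control footpads. Its differences were 0.12 in AIRmax and 0.13 in AIRmin (adjusted p = 0.664 and 0.654), and no neighbouring groups in its order of means lay apart.

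The signals of the colony-stimulating factor genes differed little between groups. Csf3 read 4.66, 4.91, 4.76 and 5.02 in AIRmax pristane footpads, against 4.74, 4.45, 4.60 and 4.54 in AIRmax control footpads, a difference of 0.25 (0.01 to 0.50, adjusted p = 0.334 from limma). In AIRmin it ranged from 4.66 to 5.01 in pristane, against 4.39 to 4.83 in control footpads (0.17, adjusted p = 0.627). Csf2, under the background level throughout, ranged from 3.15 to 3.54 in AIRmax pristane, against 3.17 to 3.43 in AIRmax control footpads (0.07, -0.18 to 0.33). In AIRmin it ranged from 3.22 to 3.52 in pristane, against 3.02 to 3.41 in control footpads (0.18, -0.07 to 0.43). The interval of the AIRmin response of Csf3 was -0.11 to 0.45. Because the Csf2 signals all lie under the background level, the size of a change in Csf2 RNA cannot be read from them. None of 11 genes of the neutrophils and precursors on which these factors act passed in any comparison, the closest in AIRmax being Itgam (0.55, adjusted p = 0.559) and Cxcr2 (0.39, adjusted p = 0.82). In control footpads, though, all 11 were higher in AIRmax at an unadjusted p under 0.05, with a median of 1.96, against 16.8% of all genes in either direction.

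**Figure D3:**
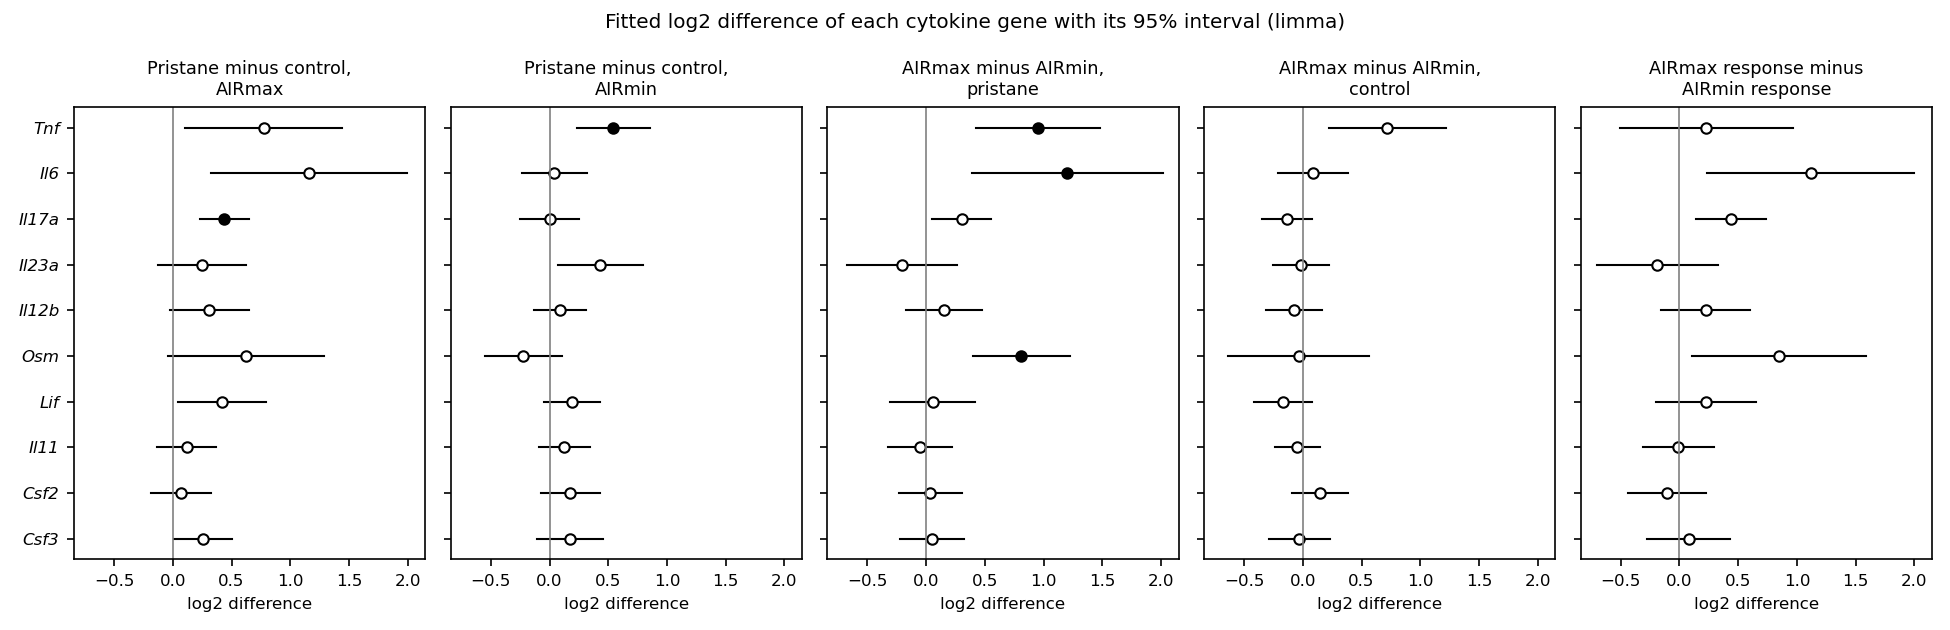
Fitted log2 difference of each cytokine gene (x axis) with its 95% interval from limma in 5 comparisons. Filled points mark genes whose first group lay wholly above the second, which are Il17a for the AIRmax response, Tnf for the AIRmin response, and Tnf, Il6 and Osm for AIRmax minus AIRmin in pristane footpads; overlap was not determined for the difference of responses.

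Tnf, Il6 and Osm were high on the same arrays, and most of the other cytokine genes followed the olfactory receptor genes, with Il17a following both. Over 16 arrays Tnf went with Il6 (r = 0.84) and Osm (r = 0.73), and Il6 with Osm (r = 0.77). These 3 had low correlations with the olfactory receptor median (0.40 for Tnf, 0.34 for Il6 and 0.26 for Osm). Il17a, Lif, Csf3, Il23a, Il11 and Il12b followed that median with r between 0.59 and 0.72, and Csf2 with 0.21. Il17a also went with Tnf (r = 0.60), Il6 (0.64) and Osm (0.59), and within groups with 0.37, 0.12 and 0.27. The genes nearest to Tnf of all those measured were N4bp1 (r = 0.95), the actin regulator gene Vasp (0.94) and Nceh1 (0.93), and those nearest to Osm were Edem1 (0.92), C130050O18Rik (0.91) and Tor1a (0.91), all above background. The nearest genes of the others varied widely in signal, and several read under the background level. They were Lpo, Cdv3 and Nkx6-1 for Il23a (0.90 each), Srsy (0.87), Tktl2 (0.85) and Vmn1r226 (0.84) for Il12b, Lhx8 (0.91), L1td1 (0.89) and Ssh3 (0.88) for Lif, Ankrd37 (0.83), Olfr346 (0.82) and Psd (0.82) for Il11, and Nutm2 (0.87), Gtsf1l (0.85) and 4930505A04Rik (0.85) for Csf3. All arrays share their group and tissue makeup in these values.

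Among 19 related ligands measured, none passed in AIRmax or AIRmin responses. In pristane footpads Il1b, a partner of TNF in joint inflammation, was higher in AIRmax than in AIRmin by 2.18 (adjusted p = 0.0431 from limma), with 8.07, 7.86, 6.98 and 8.94 in AIRmax and 6.28, 6.22, 4.98 and 5.66 in AIRmin. Il1a was lower in AIRmax, with a difference of -0.77 (adjusted p = 0.0243), and its readings of 4.43 to 4.56 in AIRmax and 5.08 to 5.53 in AIRmin did not overlap. The osteoclast factor gene Tnfsf11 differed by 0.41 in the AIRmax response (adjusted p = 0.14). Of 15 receptor genes, none passed in either response. The TNF receptor gene Tnfrsf1b passed between lines in pristane footpads, where it was higher in AIRmax by 1.73 (adjusted p = 0.0247). Tnfrsf1b read 8.78 to 9.19 in AIRmax and 6.67 to 7.94 in AIRmin pristane footpads, and the call was lost without array 111, 112, 117, 119 or 120. The Osm receptor gene Osmr had the smallest p of the receptors in the AIRmax response, with a difference of 0.55 that did not pass (adjusted p = 0.112), and its pristane arrays (7.80 to 8.07) lay above the controls (7.22 to 7.65). The gp130 gene Il6st read 10.16 to 10.31 in AIRmax pristane and 10.19 to 10.73 in AIRmax control footpads (-0.18, adjusted p = 0.569). None of 12 transducers passed in any comparison, with Stat3 at 0.32 and Traf2 at 0.22 in AIRmax (adjusted p = 0.312 and 0.327).

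Among genes known to respond to these cytokines or to inhibit them, 8 of 40 rose in AIRmax, against 0.14% of all genes. None passed in AIRmin, where 0% of all genes did. The difference in response passed for 6, against 0.171% of all genes. These lists were chosen with earlier results of these data known, so their counts and medians are a description and not a test. Of 13 target genes of the IL-6 family, Saa3, Timp1, Il4ra and Lbp rose in AIRmax, none fell, and the median of the list was 0.77 against 0.03 over all genes. Of 15 target genes of TNF and IL-17, Cxcl2, Cxcl5 and Mmp3 rose, none fell, and the median was 0.83. Of 12 inhibitors, Socs3 rose and none fell, with a median of 0.31. In AIRmin the medians were 0.03, -0.09 and 0.00, and none passed. AIRmin pristane arrays all lay above the controls for 2 IL-6 family targets and 1 inhibitor, against 3.19% of all genes. They all lay below the controls for 1 TNF and IL-17 target. SAM called 2 of the IL-6 family targets, 0 of the TNF and IL-17 targets and 1 of the inhibitors, against 2.01% of all genes.

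Socs3, the feedback inhibitor of gp130 signalling, read 8.31, 8.45, 8.57 and 8.90 in AIRmax pristane footpads, against 6.72, 6.86, 6.87 and 6.95 in AIRmax control footpads. It rose by 1.71 (standard error 0.13, adjusted p = 0.00265 from limma), against a change of -0.19 in AIRmin (adjusted p = 0.631), and the difference in response was 1.90 (adjusted p = 0.000417). The groups lay apart in AIRmax and overlapped in AIRmin. The RNase gene Zc3h12a, which degrades Il6 messenger RNA, had positive differences of 0.72 in AIRmax (adjusted p = 0.0986) and 0.60 in AIRmin (adjusted p = 0.0513), without overlap of the groups in either line. Tnfaip3, an inhibitor of TNF signalling, was higher in AIRmax than in AIRmin pristane footpads by 0.75 (adjusted p = 0.0329).

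The acute-phase gene Saa3 read 8.19, 8.74, 7.69 and 9.12 in AIRmax pristane footpads, against 4.19, 3.97, 3.72 and 4.67 in AIRmax control footpads. The difference of 4.30 (adjusted p = 0.0024) is measured against a mean under the background level. Array 111, the array with the lowest Il6 of that group, also had the lowest Saa3, Cxcl5, Mmp3 and Ccl2. Timp1, an inhibitor of metalloproteinases, rose by 2.47 in AIRmax (adjusted p = 0.000369) and differed by -0.60 in AIRmin (adjusted p = 0.275). Il4ra and Lbp rose by 1.17 and 1.13 in AIRmax (adjusted p = 0.0419 each from limma).

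The neutrophil chemokine gene Cxcl5 read 7.40, 7.50, 6.19 and 8.63 in AIRmax pristane footpads, against 4.56, 4.33, 4.57 and 5.17 in AIRmax control footpads, and it rose by 2.78 (adjusted p = 0.0492 from limma). Cxcl2 rose by 1.87 (adjusted p = 0.019), against a control mean under background, and the stromelysin gene Mmp3 by 3.50 (adjusted p = 0.0181). Between lines in pristane footpads Ccl2 (1.74), Icam1 (0.87) and Mmp13 (2.66) were higher in AIRmax too (adjusted p = 0.0321, 0.0329 and 0.0453), which made 6 of the 15 TNF and IL-17 targets. The difference in response passed for Cxcl5 (2.98), Ccl2 (2.07) and Mmp3 (4.29), and for Saa3 (4.21) and Timp1 (3.07). Over 16 arrays Il6 followed the scores of the TNF and IL-17 targets and of the IL-6 family targets with r = 0.91 and 0.90, and within groups with 0.79 and 0.72. The score of 9 macrophage markers was 0.45 to 0.97 in AIRmax pristane and -0.15 to 0.12 in AIRmax control footpads. In AIRmin it was -0.75 to -0.28 in pristane and -0.23 to 0.03 in control footpads. In the AIRmax response 3 of the 9 (Cd14, Cd68 and Msr1) rose, against 0.14% of all genes. In the AIRmin response none passed. There 6 were lower at an unadjusted p under 0.05 from limma, against 12.4% of all genes in either direction. SAM called 3 of the 9 in AIRmin, against 2.01% of all genes. The macrophage score thus went the same way as the targets in AIRmax, and its part in the responses and in the line differences was not tested.

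These counts rested on few arrays. In the AIRmax response the TNF and IL-17 target count was 0 without array 105, 106 or 107 and between 0 and 4 over all arrays left out, the IL-6 family count was 2 or 3, and the inhibitor count was 1 each time. Between lines in pristane footpads the counts ranged from 0 to 7 (0 without array 120, 1 without 117 or 119), from 2 to 5 and, for inhibitors, from 0 to 2 (0 without 117 or 120). The score of 10 muscle genes was -1.63 to -0.04 in AIRmax pristane, against -0.31 to 0.32 in AIRmax control footpads, and 0.26 to 0.65 in AIRmin pristane footpads. With that score as a covariate no target, inhibitor or receptor gene passed between lines, and 1 target gene of the IL-6 family passed in the AIRmax response.

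**Figure D4:**
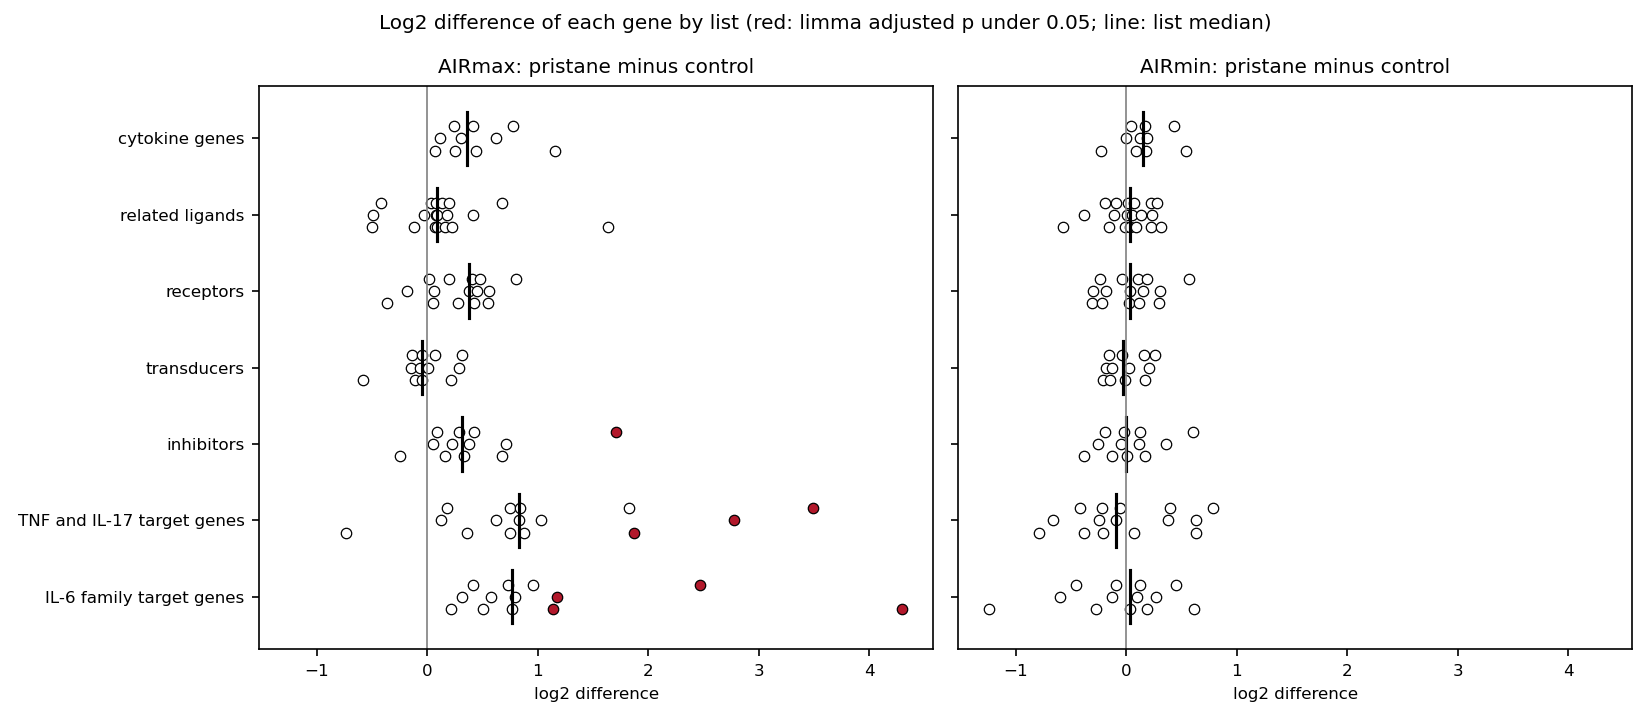
Log2 difference, pristane minus control, of each gene (x axis) by list in AIRmax (left) and AIRmin (right). Each point is a gene, red where its adjusted p from limma was under 0.05, and the vertical line is the list median. Red points appear in AIRmax alone, 1 among the inhibitors, 3 among the TNF and IL-17 targets and 4 among the IL-6 family targets, and none among the cytokine genes.

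**Figure D5:**
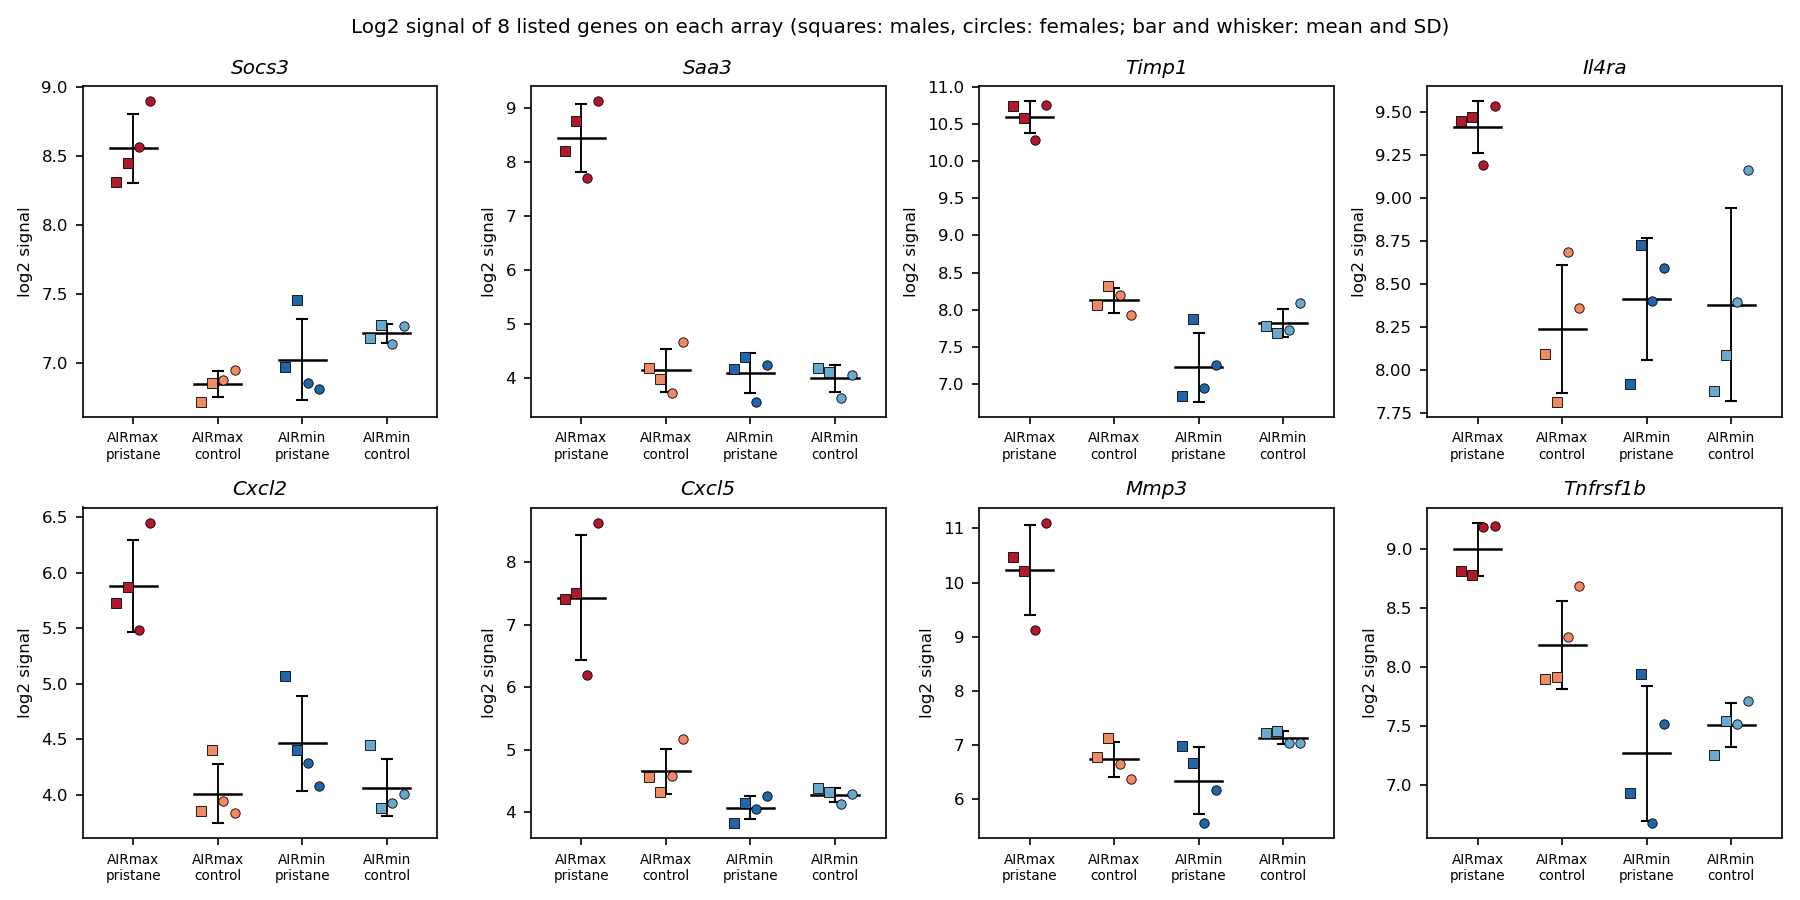
Log2 signal of Socs3, 6 target genes and the receptor gene Tnfrsf1b (y axis) on the 16 arrays by group (x axis). Points are arrays (squares, males; circles, females), bars and whiskers the group mean and SD (n = 4). The AIRmax pristane arrays of all 8 genes lie above every AIRmax control array, as with Socs3 at 8.31 to 8.90 against 6.72 to 6.95.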

How the data were processed

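Footpad RNA was measured on 16 Mouse Gene 1.0 ST arrays. The authors deposited normalized log2 signals, with a value for each probe set. The sample titles name the gene-level signal of RMA, the submitters' processing notes name MAS5, and the values run on a log2 scale with array medians from 5.435 to 5.53. Versions and builds are not given in the sources used here. The values were used as deposited. Of 35556 probe sets, 21789 named 1 gene, and the brightest over 16 arrays stood for each of 19938 genes. The 1621 probe sets naming several genes and the 12146 naming none were left out. The cytokine genes and all lists were chosen with earlier results of these data known.

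Pairs of groups (8 arrays) were fitted with limma 3.58.1 (lmFit and eBayes, constant prior) in R 4.3.3. The difference in response was fitted as an interaction on 16 arrays, and sex beside 4 group means. P-values were adjusted over all genes by Benjamini-Hochberg, threshold 0.05, and intervals are 95%. Nothing says which arrays were processed together. Array signal has no counted depth, and 4 arrays a group limit precision. Each array is 1 sample of 1 footpad RNA, and the study calls the 4 of a group biological replicates. Fits were tested on simulated data.

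Genes named are the cytokine genes, listed genes that passed in a group comparison or the interaction, the 2 of each list with the smallest p in the AIRmax response, and the 3 genes of highest Pearson r with each cytokine gene above background. Il6st, Il23r and the scores named with them were added after their values were seen. Of 185 listed genes, 16 had no probe set naming them alone and were not analysed here. Alternatives were probe sets averaged per gene, probe sets naming several genes, genes above the median signal, standardized arrays, quantile normalization, 1 fit of all arrays, a sex covariate, a prior that was trended and robust, muscle and granulocyte scores as covariates, each array left out, SAM (written anew, false discovery rate 0.05), other background percentiles, and, added after seeing the data, the olfactory receptor median as a covariate. Promoters came from RefSeq. Python 3.11.15, pandas and matplotlib made tables and figures.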

Additional observations from a re-analysis of the deposited data

Results flagged for a closer look

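Of 40 sets of 4 arrays (10 cytokine genes in 4 groups), 2 held an array apart from the rest by Dixon's test at the 95% level, which chance does for about 1 group in 20. Il17a read 5.19 on array 108, an AIRmax control female, against 4.93 to 4.94 on the other 3 controls, a gap of 0.952 of the group's range. Without that array the AIRmax difference of Il17a was 0.50 (adjusted p = 0.067 from limma). Il11 read 4.33 on array 105, an AIRmax control male, against 4.56 to 4.60 on the others, a gap of 0.842 of the range.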

How the results depend on the processing

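With 4 arrays a group and signals near background, differences of the size seen in most cytokine genes are hard to tell from drift of low signals. The count of cytokine genes called, 0 in each of the 6 comparisons, stayed 0 whichever array was left out. With all 16 arrays in 1 fit it was 1 in the AIRmax response (Il17a, adjusted p = 0.0387 from limma) and 2 between lines in pristane footpads (Tnf, 0.0302, and Il6, 0.0241), in fits that called 338 (1.7%) and 1519 (7.62%) of all genes, against 56 and 271. With the granulocyte precursor score as a covariate it was 3 in the AIRmax response (Tnf, 0.049, Il6, 0.0243, and Il17a, 0.0453), 1 between lines in pristane footpads (Osm) and 2 in the difference of responses (Il6 and Osm), where all genes gave 473 (2.37%), 595 (2.98%) and 462 (2.32%) calls. SAM gave 1 in the AIRmax response and 1 between lines in pristane footpads, among 721 (3.62%) and 1000 (5.02%) genes. Why these settings differ was not tested. In all, 124 of 131 such counts and 1207 of 1216 single values kept their side of the threshold, and 80 of the single values changed sign, none of them called and none over 0.25 in size after the change.

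The number of cytokine genes near background in all groups was 2 at the 90th and 95th percentile and at the highest Xist signal of males, and 7 at the 99th percentile. Over all genes, the AIRmax response gave 56 calls, 4 to 107 with an array left out, and the AIRmin response 0 calls, up to 138 with an array left out. With the muscle score as a covariate the AIRmax calls among targets and inhibitors were 1 in all, and with the olfactory receptor median 0. No paired analysis was possible because the array numbers are not shared between groups.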

Other observations

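Some markers of other cells passed, in most lists 1 gene or none. In the AIRmax response 7 of 10 muscle and 5 of 6 adipocyte genes were lower at an unadjusted p under 0.05 from limma. None was higher, and the share of all genes in either direction was 14.4%. In AIRmin 0 muscle and 4 adipocyte genes were lower at that level, against 12.4%. In pristane footpads 9 of 10 muscle genes were lower in AIRmax than in AIRmin, against 18.8% of all genes. Between lines in pristane footpads, 5 of 9 macrophage genes were higher in AIRmax by limma, against 0.853% of all genes, and none was lower. They were Msr1 (by 2.32), Cd14 (1.90), Adgre1 (1.53), Cd68 (1.29) and Fcgr1 (1.27). Of 8 synovial and fibroblast genes, Pdpn and Col3a1 were higher (2.41 and 1.74) and Clic5 lower (-1.26) in AIRmax. The mast cell tryptase gene Tpsab1 was lower in AIRmax than in AIRmin in both pristane (-2.37) and control footpads (-2.79), and the muscle gene Mb was lower in pristane footpads (-1.84). In the AIRmax response Pdpn rose by 1.90 (adjusted p = 0.0241), and of 7 T cell genes Cd2 fell by 1.12 (adjusted p = 0.0264), with 5.78, 5.09, 5.55 and 5.49 in pristane footpads, against 6.56, 6.56, 6.5 and 6.75 in control footpads. Cd3g (-0.84), Cpa3 and Ms4a2 of mast cells (-0.79 and -0.72), Krt9 and Krt14 of keratinocytes (-1.24 and -0.32), Tnnc2 of fast muscle (-1.09) and Cidec and Pparg of adipocytes (-1.07 and -0.81) had negative differences that did not pass (adjusted p = 0.0860 for Cd3g and 0.0706 for Cidec), while Has1 of fibroblasts differed by 0.66 (adjusted p = 0.175). Cd2 was mostly lower with pristane in AIRmin too. It read 5.47, 5.56, 5.54 and 5.88 in AIRmin pristane footpads, against 6.28, 6.39, 5.81 and 6.58 in AIRmin control footpads, with overlap. At an unadjusted p under 0.05 from limma, 4 of the 7 T cell genes were lower in AIRmax and 2 in AIRmin. None was higher, and the shares of all genes in either direction were 14.4% and 12.4%.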
